A study of Eohaustorius estuarius with 16 samples.

Results

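A group of 154 transcripts, out of 8507 probed, gave a signal at least 4-fold above its usual level in 2 of 16 whole-body samples of the amphipod Eohaustorius estuarius. One of these samples was a control (control 1) and the other had been exposed to the insecticide cyfluthrin (cyfluthrin 2). A probe was a member where its normalised log2 signal stood 2 or more above the probe's own median over the 16 arrays on both of these arrays. It also had to be well above background on at least 50% of its spots on both. Normalised log2 signal means the mean log2 processed intensity of a probe's spots, less the 75th percentile over all non-control probes of that array. Of the probes, 288 (3.39%) met both conditions in control 1 and 242 (2.84%) in cyfluthrin 2, and the members (1.81%) are the probes common to both. The members were thus chosen by the values of control 1 and cyfluthrin 2. Those values are given below as a description, without a test, and the other 14 arrays were not named by the rule.

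Eohaustorius estuarius is a burrowing estuarine amphipod used in tests of sediment toxicity, and cyfluthrin is a pyrethroid, a class of insecticides that bind voltage-gated sodium channels in nerves. Total RNA of whole bodies, carrying the dye Cy3, was measured on custom Agilent arrays in 1 colour, 1 sample to an array. The 8 control samples came from sediment spiked with solvent alone and the 8 exposed samples from sediment to which cyfluthrin had been added (nominal 1.6 µg/kg), both after 10 days, in the laboratory labelled B of a comparison between laboratories. Strain, age, sex, brood and moult stage, the number of animals in a sample and whether samples came from separate aquaria are not given in the sources used here, so that p-values measure only the spread between these samples, and some of it may be technical.

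An oligonucleotide probe on such an array reports the abundance of the transcript it binds, relative to all labelled RNA of the sample. In RNA of whole bodies all tissues are mixed, and a larger number of cells that carry a transcript and more transcript per cell cannot be told apart. The probes are known here by the number of an assembled contig only. No function, and no list of tissue markers, could therefore be assigned to any member, and neither the members' roles nor the labelled source could be checked against marker genes.

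Both slides carried arrays of both groups. Slide 1 held replicates 1 to 4 and slide 2 replicates 5 to 8, each slide was scanned apart from the other, and within a slide the exposed samples filled one row and the controls the other. Control 1, cyfluthrin 2 and control 4 all lay on slide 1, and cyfluthrin 5 and cyfluthrin 8 on slide 2. An array had from 76.0% to 86.2% of all probes well above background and a 75th percentile of intensity from 421 to 1011. In the 14 arrays not named by the rule, the log2 75th percentile of controls was 9.14 ± 0.22 (SD, n = 7) and that of exposed samples 9.38 ± 0.35 (SD, n = 7), and the difference did not pass the threshold (two-sided exact permutation p = 0.148). Of all probes, 81.2% ± 3.13 (SD, n = 7) and 83.4% ± 2.55 (SD, n = 7) respectively were well above background, which did not pass either (two-sided exact permutation p = 0.175).

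In control 1 the median member stood 5.10 log2 units above its probe median, or 34.4-fold, with quartiles of 3.53 and 7.40 and a highest value of 13.26. In cyfluthrin 2 the median member stood 4.70 log2 units above, or 26.1-fold, with quartiles of 3.29 and 6.66 and a highest value of 11.97. These folds include members whose median signal was not well above background. Among the 53 members well above background on all 16 arrays, the median was 4.31 log2 units in control 1 and 4.24 in cyfluthrin 2. Saturated spots, which can hide part of a difference, were found on control 1 in 3 members (contigs 7910, 2394 and 3092), on cyfluthrin 2 in 7 (contigs 130, 724, 871, 941, 1177, 1413 and 3092), and on control 4 in contig 3092. These contigs were listed for their saturated spots after their values were seen.

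The members made up a small part of the summed normalised signal of most arrays and a visible part of a few. Their share was 11.6% in control 1, 8.94% in cyfluthrin 2, 5.30% in control 4, 2.15% in cyfluthrin 8 and 0.57% in cyfluthrin 5. In the other 11 arrays it lay between 0.16% and 0.26%. Such a share depends on how well each probe binds, so that it describes the arrays and not the number of molecules.

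Control 4, which the rule did not name, was the third array in which the members were raised. Its median member stood 2.54 log2 units above the probe median, or 5.80-fold, with quartiles of 0.82 and 5.23. In it 93 members (60.4%) stood 2 or more log2 units above their median, beside 1.75% of all probes, and 110 stood 1 or more above, beside 4.26% of all probes. Of all 149 probes at 2 or higher in control 4, the 93 members formed 62.4%. The level in control 4 was below that in control 1 for 145 of the 154 members and below that in cyfluthrin 2 for 121. The rule chose members for their height in those 2 arrays. Lower values elsewhere are in part set by that choice, here and in the comparisons with control 1 below. For the 125 members well above background in control 4, the median difference from control 1 was -1.54 log2 units, which is 34.4% of the level in control 1.

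**Figure D1:**
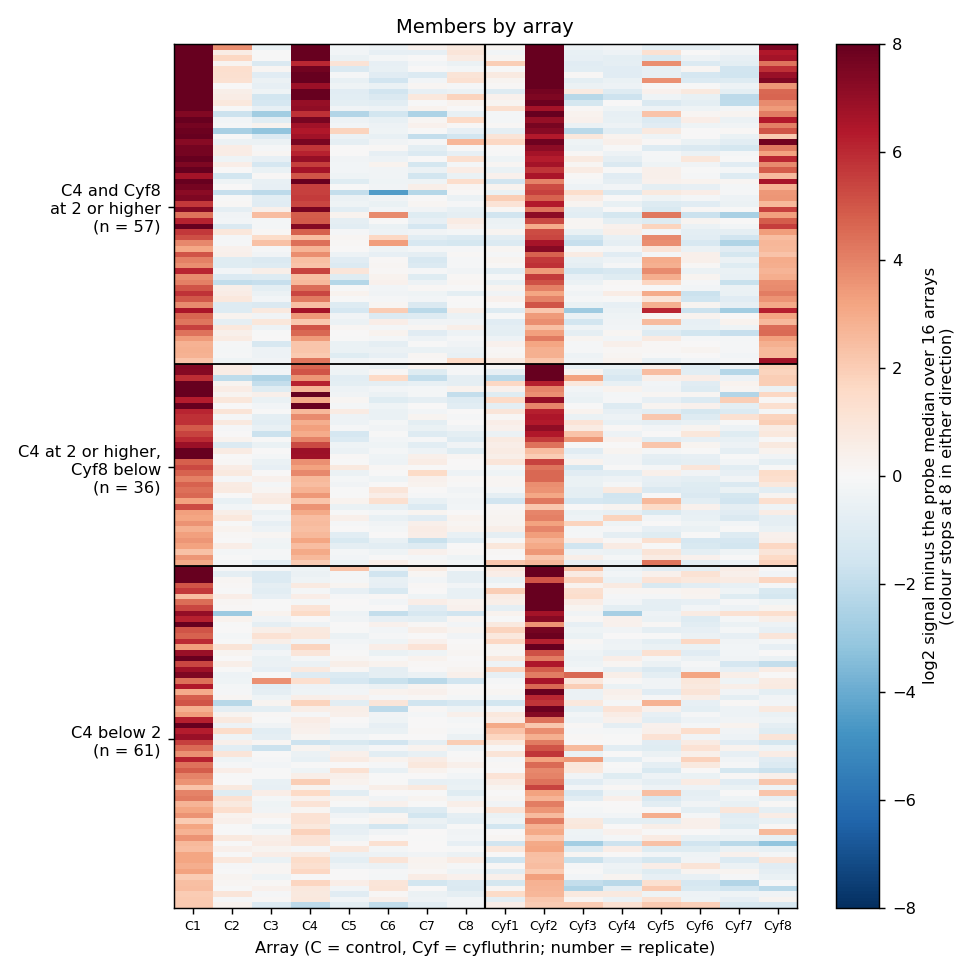
Each row is 1 of the 154 members and each column 1 of the 16 arrays, and the colour gives log2 signal minus the probe median, stopped at 8 in either direction. The 57 members in the upper band were at 2 or higher in both control 4 and cyfluthrin 8, the 36 in the middle band in control 4 without cyfluthrin 8, and the 61 in the lower band were below 2 in control 4.

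Cyfluthrin 8, on the other slide and in the other treatment group, came next. Its median member stood 1.02 log2 units above the probe median, or 2.02-fold, with quartiles of -0.26 and 3.19. In it 60 members (39.0%) were at 2 or higher, beside 1.8% of all probes. Of these 60, 57 (95%) were also at 2 or higher in control 4, and they formed 61.3% of the 93 members raised in control 4. The 3 exceptions were contigs 6576, 3511 and 4817, named after their values were seen, which had reached 1.86, 1.58 and 1.99 in control 4. Among the 117 members well above background in cyfluthrin 8, the median difference from control 1 was -3.28 log2 units, or 10.3% of the level in control 1. The signal in cyfluthrin 8 was below that in control 4 for 127 members.

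Cyfluthrin 5 had a raised minority of members. Its median member stood at -0.12 log2 units, but 25 members were at 2 or higher, beside 0.799% of all probes. Of those 25, 19 (76%) were also at 2 or higher in control 4 and 15 (60%) in cyfluthrin 8, while 14 were so in all 3 arrays. In cyfluthrin 3, 8 members were at 2 or higher, beside 0.788% of all probes. In the other 10 arrays between 0 and 3 members reached 2. Beside them stood 0.341%, 0.247%, 0.247%, 0.411%, 0.576% and 0.505% of all probes in controls 2, 3, 5, 6, 7 and 8, and 2.56%, 0.447%, 0.647% and 0.153% in cyfluthrin 1, 4, 6 and 7. Without control 4, cyfluthrin 5 and cyfluthrin 8, the member medians of the remaining 11 arrays lay between -0.43 and 0.11 log2 units. High and low arrays were thus found in both groups and on both slides.

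**Figure D2:**
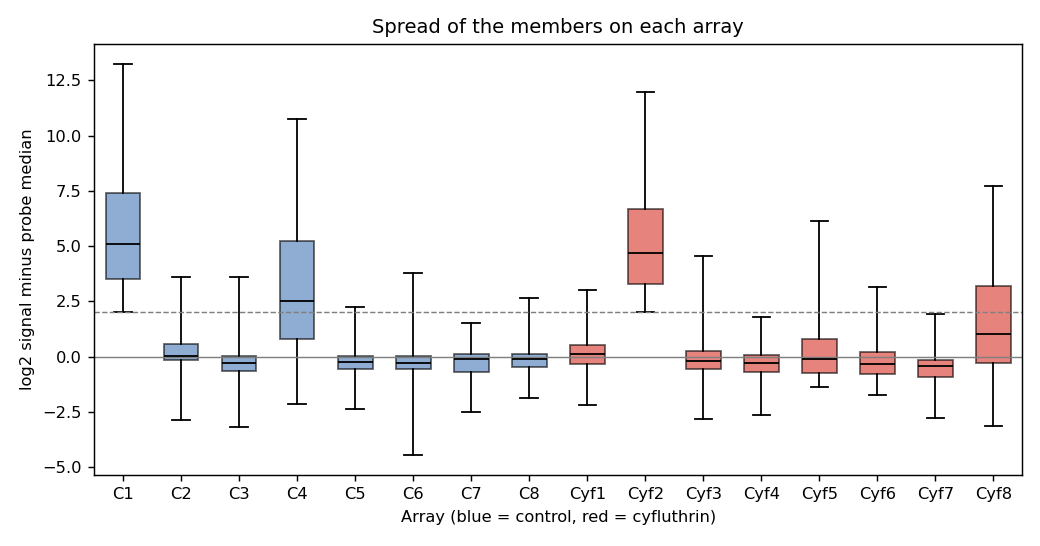
For each of the 16 arrays the box spans the quartiles of the 154 members, the bar is their median and the whiskers reach the lowest and highest member, in log2 signal minus the probe median; the dashed line marks the threshold of 2. The medians of 5.10 in control 1 and 4.70 in cyfluthrin 2 were set by the rule, those of 2.54 in control 4 and 1.02 in cyfluthrin 8 were not.

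The slope of the spike-in fit, which the file headers give for the signal of added control transcripts against their known amounts on log scales, was lowest in the 3 arrays where the members were highest. It was 0.726 in cyfluthrin 2, 0.734 in control 1 and 0.735 in control 4, followed by 0.749 in cyfluthrin 7, where the median member stood at -0.43. It was 0.812 in cyfluthrin 8 and 0.824 in cyfluthrin 5, within the range of the other arrays, which reached 1.03. Array brightness did not follow the same order: the log2 75th percentile was 9.18 in control 1, 9.34 in control 4, 9.95 in cyfluthrin 2, 9.98 in cyfluthrin 5 and 9.68 in cyfluthrin 8, against 8.72 to 9.41 in the remaining arrays. The part of either measure in the members' signal was not tested.

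The members fell into bands by the arrays they shared. The 57 at 2 or higher in both control 4 and cyfluthrin 8 had medians of 7.23 log2 units in control 1, 5.73 in cyfluthrin 2, 5.49 in control 4 and 3.76 in cyfluthrin 8. A further 36 at 2 or higher in control 4 without cyfluthrin 8 had medians of 5.06, 3.96, 3.09 and 0.71 in the same arrays. The 61 below 2 in control 4 had medians of 4.36, 4.13, 0.49 and -0.28. Of the 154 members, 46 (29.9%) stayed below 2 in all 14 arrays not named by the rule, as did 92.2% of all probes. For 15 members (9.74%) none of those 14 arrays reached even 1 log2 unit. The share of all probes at that level is not given here, so that this count is a description only.

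Within the pair of arrays that defined them, the members did not keep 1 order. The signal was higher in control 1 than in cyfluthrin 2 for 85 members, by more than 2 log2 units for 29 of them, and higher in cyfluthrin 2 by more than 2 log2 units for 22. Across the 154 members, deviations correlated at 0.41 (Pearson) between control 1 and cyfluthrin 2, at 0.59 between control 1 and control 4, and at 0.25 between cyfluthrin 2 and control 4. Between control 4 and cyfluthrin 8, neither of which chose the members, the correlation across members was 0.80, and across the 8353 other probes 0.25. These are correlations across probes that share arrays and scaling, and are given as a description.

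**Figure D3:**
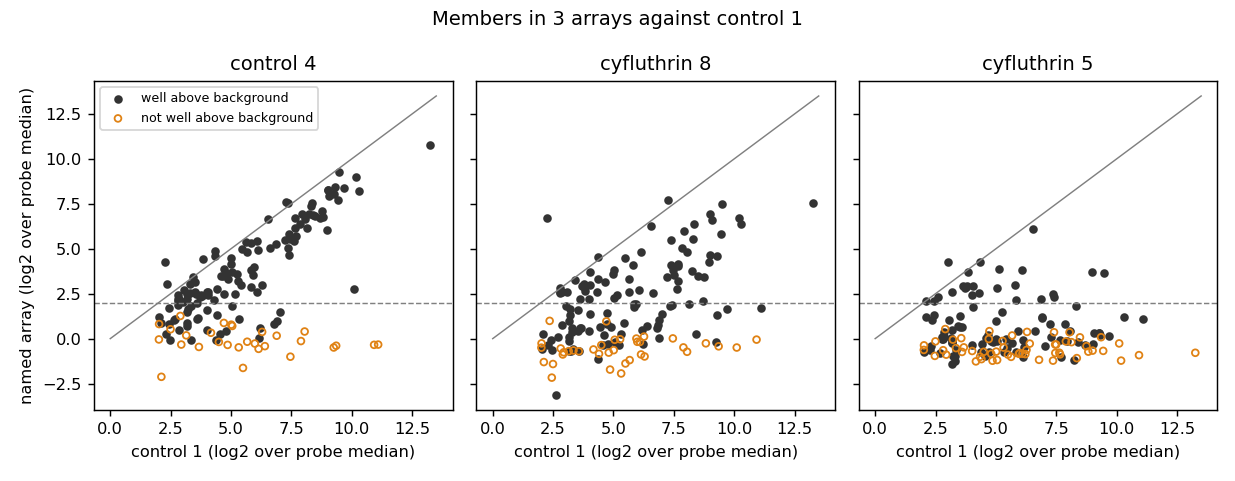
Each point is 1 of the 154 members, with its log2 signal over the probe median in control 1 on the horizontal axis and in control 4, cyfluthrin 8 or cyfluthrin 5 on the vertical axis; open points were not well above background on the vertical array and the grey line marks equal values. Most points lie below the line: 145 were lower in control 4 than in control 1, and 150 lower in cyfluthrin 8 than in control 1. The rule chose members for their height in control 1, which in part sets these counts.

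Over the 14 arrays not named by the rule, each probe was set against the median profile of the other members. The median Pearson correlation of the members was 0.67, and 103 members (66.9%) were above 0.5, beside 3.4% of the other probes. Control 4 carried much of this likeness. Without it the median was 0.45 over 13 arrays, with 73 members (47.4%) above 0.5, beside 4.86% of the other probes. Without both control 4 and cyfluthrin 8 it was 0.26 over 12 arrays, beside 0.15 for the other probes. For the 53 members well above background on all 16 arrays it was then 0.13, beside 0.11 for other tested probes. Little likeness was thus left in the members seen on every array. Over 14 arrays the profile most like the members' among tested non-members was that of contig 3626 (CUST_231_PI425439771), with r of 0.96, and contig 4619 (CUST_376_PI425439380) followed with r of 0.95. Both were raised in control 1, by 3.26 and 2.27 log2 units, but by 1.25 and 1.17 in cyfluthrin 2, below the threshold of the rule. In control 4 they stood 2.34 and 1.89 above their medians.

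On each of the 14 other arrays a larger share of the members than of all probes was not well above background. A member is called seen on an array where it was well above background, and one not seen need not be absent. Across the 14 other arrays, between 29 members (control 4, beside 17.8% of all probes) and 92 members (control 7, beside 24% of all probes) were not well above background. The share had a median of 42.2% over these arrays, beside 17.1% over all probes. In cyfluthrin 8 it was 24.0%, beside 17.3% of all probes, and in cyfluthrin 5 37.0%, beside 15.6%. The 53 members well above background on all 16 arrays formed 34.4% of the group, beside 69.5% of all probes, and the 66 that were so on at most 8 arrays formed 42.9%, beside 18.3% of all probes. Of these 66, 38 were well above background in control 4 and 31 in cyfluthrin 8, against 1 to 19 in each of the other 12 arrays. The signal of 8 members was well above background in control 1 and cyfluthrin 2 alone. Under the looser test that a signal was positive and significant, the median share not passing was 15.3%. The share of all probes under that test is not given here.

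**Figure D4:**
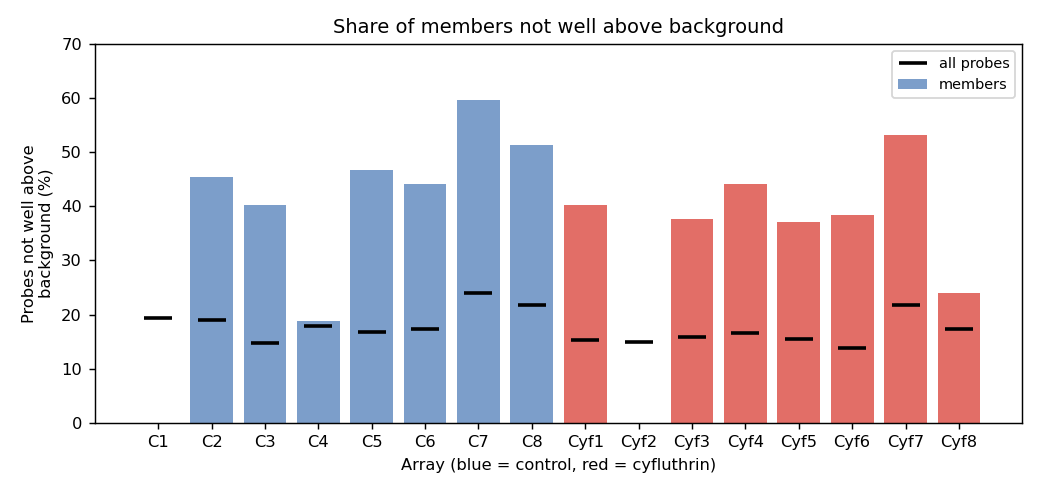
Bars, from 0, give the percent of the 154 members not well above background on each array, and the short black lines the same percent over all 8507 probes. Control 1 and cyfluthrin 2 are at 0 because the rule required it; the lowest of the others is control 4 at 18.8% and the highest control 7 at 59.7%.

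Contig 130 (CUST_6378_PI425439380) led the members seen on all 16 arrays by the smaller of their rises on the defining arrays, an order that rests in part on saturated spots. Its normalised log2 signal was 6.68 in control 1 and 6.07 in cyfluthrin 2. Among the other 7 controls it ran from -4.27 through a median of -3.64 to 4.59, the highest being control 4, and among the other 7 exposed samples from -4.18 through -3.82 to 2.77, the highest being cyfluthrin 8. Outside control 4, cyfluthrin 5 and cyfluthrin 8 the other 11 arrays lay between -4.27 and -2.66, so that 4 arrays of the 16 stood far above the rest.

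Contigs 3092 (CUST_89_PI425439771) and 2785 (CUST_1596_PI425439775) followed contig 130 by the same measure, contig 3092 with saturated spots on both defining arrays. The log2 signal of contig 3092 was 6.84 in control 1, 6.02 in cyfluthrin 2, 6.65 in control 4, 4.82 in cyfluthrin 8 and 1.02 in cyfluthrin 5, while the remaining 11 arrays ran from -4.18 through a median of -3.20 to -1.40. It thus had 5 graded high arrays, and among members seen on all 16 arrays it stood highest over its median in control 4, by 9.29 log2 units, with saturated spots there. The log2 signal of contig 2785 was 6.61 in control 1, 5.39 in control 4, 4.97 in cyfluthrin 2, 1.91 in cyfluthrin 8 and -2.34 in cyfluthrin 5, with -4.21 to -1.91 in the remaining 11. Cyfluthrin 5 was not apart from the rest for this transcript.

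Among members seen on at most 8 arrays, contig 8611 (CUST_332_PI425439771) led by the smaller of its rises on the defining arrays. Its log2 signal was 3.49 in control 1, 2.9996 in cyfluthrin 2, 2.31 in control 4 and -0.01 in cyfluthrin 8, and it was not well above background on the other 12 arrays. Against those dim arrays only a bound can be given, as the mean over them of the higher of the probe's own signal and the lowest signal among probes well above background. Against that mean its signal was at least 830-fold higher in control 1, at least 591-fold higher in cyfluthrin 2 and at least 367-fold higher in control 4. Contig 8611 was thus either high or not well above background, with cyfluthrin 8 below the 3 highest.

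Contig 4123 (CUST_306_PI425439771) was well above background on 8 arrays. Its log2 signal was 3.38 in control 1, 3.58 in cyfluthrin 2, 2.65 in control 4 and 1.31 in cyfluthrin 8, and in the 12 others it lay at -4.31 or lower. Against the same mean over its dim arrays the signal was at least 724-fold higher in control 1 and at least 436-fold higher in control 4. The signal of contig 7026 (CUST_1469_PI425439771), seen on 6 arrays, was 4.10 in cyfluthrin 2, 2.26 in control 1, -0.66 in control 4, -2.45 in cyfluthrin 8 and -2.97 in cyfluthrin 5. The order of control 1 and cyfluthrin 2 was thus the reverse of that in contig 8611.

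Contig 7910 (CUST_1419_PI425439771) was second in control 4 among members seen on all arrays. Its log2 signal was 6.78 in control 1, 5.93 in control 4 and only 1.39 in cyfluthrin 2, with -1.24 in cyfluthrin 8, -2.33 in cyfluthrin 5 and -3.55 to -2.16 in the 11 others. Both raised controls therefore stood far above the raised exposed sample. At the other end were contigs 7785 (CUST_1361_PI425439771) and 3644 (CUST_1114_PI425439771), lowest over their medians in control 4 among members seen on all arrays. The log2 signal of contig 7785 was 1.33 in control 1 and 1.51 in cyfluthrin 2, but -3.09 in control 4 and -4.15 in cyfluthrin 8, where the remaining 11 arrays, counted without cyfluthrin 5, ran from -3.23 to -2.12. That of contig 3644 was 2.23 and 3.36 in the defining arrays, -3.92 in control 4 and -3.49 in cyfluthrin 8. For these 2 contigs the defining arrays stood alone.

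The 2 members with the highest mean signal over the 14 other arrays were contigs 6236 (CUST_6132_PI425439380) and 724 (CUST_4393_PI425439380), transcripts that were readily seen in every sample. The log2 signal of contig 6236 was 4.25 in control 1, 4.27 in cyfluthrin 2, 3.63 in control 4 and 3.996 in cyfluthrin 8, and between 0.85 and 1.64 in the 11 others, with 1.47 in cyfluthrin 5. Cyfluthrin 8 lay above control 4 here. That of contig 724 was 4.71 in control 1, 5.95 in cyfluthrin 2, 3.34 in control 4, 3.95 in cyfluthrin 8 and 3.79 in cyfluthrin 5, and -0.24 to 1.17 in the 11 others. The raised arrays of contig 724 thus included cyfluthrin 5, which was not apart from the rest in contig 6236.

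**Figure D5:**
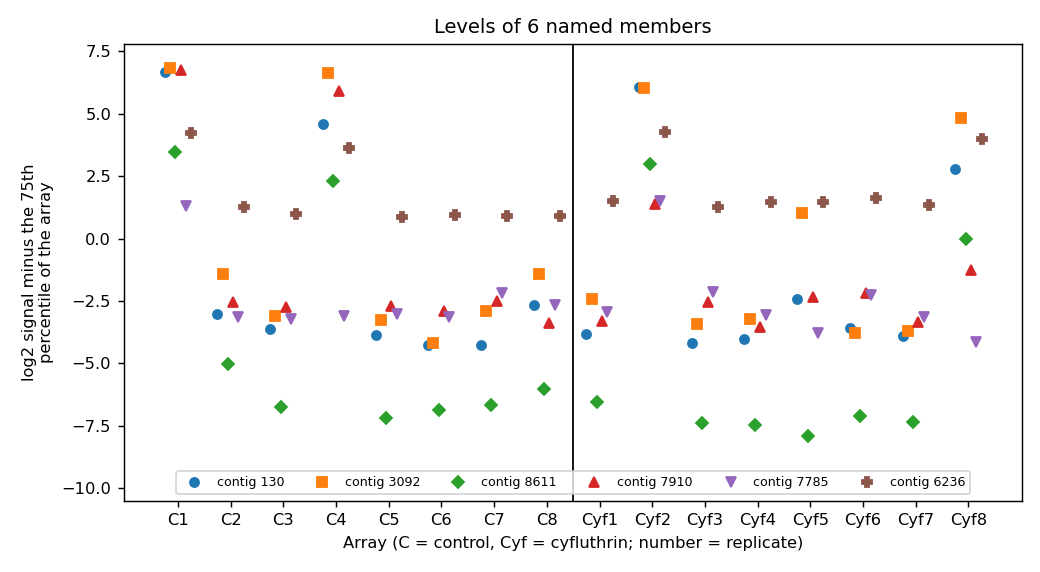
Points give the log2 signal minus the 75th percentile of the array for 6 named members on each of the 16 arrays. Contigs 130, 3092 and 8611 are high in control 1, control 4, cyfluthrin 2 and cyfluthrin 8, contig 7910 is at 1.39 in cyfluthrin 2 against 6.78 in control 1, and contig 7785 is at -3.09 in control 4.

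The threshold crossed a continuous range of values. The smaller of a member's values in control 1 and cyfluthrin 2 ran from 2.004 through a median of 4.01 to 9.70. It lay between 2 and 2.25 for 13 members, and 12 probes outside the group had a value between 1.75 and 2. Nearest inside was contig 2256 (CUST_3896_PI425439775), at 8.83 log2 units over its median in control 1, 2.004 in cyfluthrin 2 and 6.78 in control 4. Nearest outside was contig 6432 (CUST_617_PI425439771), at 3.16 in control 1, 1.999 in cyfluthrin 2 and 1.24 in control 4.

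The rise was seen on separate spots of the same probe. Of the 154 members, 111 were printed as 2 spots, 36 as 1 spot and 7 as 10 or 11 spots. Among the 118 with several spots, every spot was at 2 or higher in 115 on control 1 and in 117 on cyfluthrin 2. These 2 counts follow largely from the rule, which used the mean of the same spots. On arrays not named by the rule it was so in 68 on control 4 and in 45 on cyfluthrin 8. The median difference between the 2 spots of a member was 0.063 log2 units on control 1, 0.051 on cyfluthrin 2, 0.079 on control 4 and 0.11 on cyfluthrin 8. For other tested probes it was 0.082, 0.077, 0.078 and 0.086 on the same arrays. On the 11 arrays without cyfluthrin 5 it was 0.15 to 0.20 for members. The spots of members were spread over the array: divided into 4 equal blocks, it held 22.8% to 26.6% of them in each. Probes printed 10 or 11 times formed 4.55% of the members and 0.588% of all probes.

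Among the 7 members with 10 or 11 spots, contig 3961 (CUST_1026_PI425439771), with 11 spots, had a log2 signal of 1.25 in control 1, 0.067 in control 4, -0.021 in cyfluthrin 2 and -0.28 in cyfluthrin 8, and of -4.49 to -3.11 on the other 12 arrays. The SD between its spots was 0.070 to 0.080 on the 4 raised arrays. Contig 6150 (CUST_455_PI425439775) was at 1.06 in control 1, -0.85 in control 4, -1.74 in cyfluthrin 2 and -2.91 in cyfluthrin 8. Contig 3456 (CUST_4475_PI425439775) was highest in the defining arrays, at -0.36 in control 1 and 3.32 in cyfluthrin 2, with -6.21 in control 4. It was well above background on 4 arrays, and stood at -4.09 in cyfluthrin 1 and -4.78 in cyfluthrin 3. These 3 contigs were picked after their values were seen. They are examples of a graded, a graded and a mainly 2-array pattern.

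Whether the members differed between exposed and control samples was tested in the 14 arrays not named by the rule, 7 of each group. Of the 154 members, 94 were tested, being well above background on at least 4 of 7 arrays of a group, and 60 were not tested. Among all 7152 probes tested 589 changed (8.24%), of which 184 rose (2.57%) and 405 fell (5.66%), by limma with adjusted p under 0.05. With arrays scaled to their median the split was 270 and 273. Leaving out control 2, 6, 7 or 8 took the 589 to 278, 249, 327 or 337, in that order, and leaving out cyfluthrin 5, 7 or 8 took it to 300, 387 or 372. The only member to pass was contig 471 (CUST_4615_PI425439775), which rose. It met the filter through the exposed samples alone, well above background on 6 of them and on 0 of the controls. A probe that is dim in the controls is likelier to be called as a rise, so that its direction follows in part from the filter. An unadjusted limma p under 0.05 was found for 8 members (8.51%), beside 29.9% of all probes. The median log2 change was -0.06 over the members and -0.07 over all probes, but the median standard error was 0.67 for members and 0.20 for all probes. A change of moderate size in a member would thus lie within the spread between arrays, and the counts do not show that exposed and control samples were alike.

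The log2 signal of contig 471 was 4.13 in control 1 and 3.27 in cyfluthrin 2. In the other 7 controls it ran from -6.64 through -5.83 to -4.95, not well above background on any of them, and in the other 7 exposed samples from -5.34 through -4.69 to -3.97, above background on 6. The groups overlapped. The log2 change was 1.04 ± 0.27 (SE; 95% interval 0.47 to 1.60; limma adjusted p = 0.0319). Each control was also taken at the higher of its own signal and the lowest signal among probes well above background on that array. The mean of the exposed samples was then 2.01-fold higher. This is a point value and not a lower limit, as the interval shows, and 1 exposed sample was itself not well above background. The measured mean of the controls was -5.77 ± 0.56 (SD, n = 7) and that of the exposed samples -4.74 ± 0.49 (SD, n = 7). The call was kept in 13 of 25 alternatives, with limma adjusted p from 0.0230 to 0.854, and 6 of these 13 were among the 14 fits without 1 array. With normexp the log2 change turned to -0.045, while without 1 array it lay between 0.89 and 1.17.

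The number of members that changed depended on single arrays. With all 14 arrays it was 1 of 94 (limma, adjusted p under 0.05). It was 0 without control 2, 3, 6 or 8 or cyfluthrin 3, beside 3.89%, 5.98%, 3.48%, 4.71% and 7.14% of all probes in that order. It was 3 without control 4 (beside 7.59% of all probes), 2 without control 5 (8.59%), 2 without cyfluthrin 4 (10.5%) and 3 without cyfluthrin 8 (5.2%). Without both control 4 and cyfluthrin 8, 5 members passed (5.32%, beside 5.62% of all probes), namely contigs 2046, 471 and 6236, which rose, and contigs 5947 and 150, which fell. These contigs were named after their values were seen. The log2 change of contig 6236 was then 0.48 ± 0.11 (SE, limma adjusted p = 0.0310), against 0.46 ± 0.48 (SE) with both arrays, where it did not pass. Control 4 and cyfluthrin 8 were left out after their member values had been seen. The smaller SE and the calls of this fit follow in part from that choice. The rise of contig 471 also carries the limit of the filter given above.

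Direction in the members turned between slides. On slide 1, where control 4 was the raised array, the median log2 change with exposure over the 94 members was -1.01, and 82 of them were lower in exposed samples. On slide 2, where cyfluthrin 8 was raised and cyfluthrin 5 had a raised minority of members, it was 0.81, and 73 were higher. Members higher in exposed samples formed 12.8% on slide 1 and 77.7% on slide 2, beside 47.7% and 42.4% of all probes. The members share arrays and scaling, so that these counts are not separate observations. The part of the raised arrays in them was not tested. Over all 7152 probes the median was -0.03 on slide 1 and -0.10 on slide 2. No member passed on slide 1 alone (0 by limma, beside 0.35% of all probes), and 13 (13.8%) had an unadjusted p under 0.05, beside 10.8% of all probes. On slide 2 alone contigs 5433 and 206 passed, both higher in exposed samples (1.05% of all probes passed). Their log2 changes were 1.95 ± 0.33 (SE) and 1.48 ± 0.25 (SE), each at a limma adjusted p of 0.0435. Over both slides, without the defining arrays, the mean log2 signal of contig 206 was -6.73 in controls and -5.60 in exposed samples. On each control the lowest signal among probes well above background lay between -6.58 and -5.56. The control mean of contig 206 was below all of these, so that the direction of its call may follow in part from the filter. The difference in response between slides, tested directly, passed for 0 of 94 members (limma; 7, or 7.45%, with an unadjusted p under 0.05, beside 5.48% of all probes), and for 0% of all probes. Within a slide, exposure and slide row cannot be told apart.

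In the fit over all 16 arrays, given as a description because the rule made every member vary widely in both groups, 0 of 104 tested members passed (limma), beside 4.97% of all probes, and 1 had an unadjusted p under 0.05, beside 23.1% of all probes. Between slides, with exposure in the model and without the defining arrays, 0 of 94 members passed (limma), beside 1.27% of all probes, and 5 had an unadjusted p under 0.05, beside 14.8% of all probes. With dim probes kept in that comparison, contig 3184, named after its values were seen, was lower on slide 2 by a log2 difference of -1.23 ± 0.20 (SE, limma adjusted p = 0.00911), beside 1.1% of all probes.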

How the data were processed

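The authors deposited 1 Agilent Feature Extraction file per array. Per the file headers, the processed intensity is the background-subtracted, spatially detrended Cy3 brightness on a linear scale, with no normalization between arrays (software version 10.7.1.1 there, and 9.1 in the submitters' processing notes). They also deposited a table of log2 values, each probe centred on its median over arrays, with a normalization not given in the sources used here; it served as an alternative. Groups came from the labels' treatment field, replicate numbers from titles, slide and scan from the headers.

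Of 15744 spots, 536 control spots were left out. Group comparisons used limma 3.58.1 (R 4.3.3; lmFit and eBayes, two-sided, no block) on all tested probes with Benjamini-Hochberg adjustment, threshold 0.05. The fit was checked on simulated arrays with 200 changed probes. It recovered 20.9% of 1.5-fold, 53.7% of 2-fold and 89.4% of 4-fold changes, with 10 false calls. The simulated noise was normal and independent between probes, unlike that of members that share raised arrays. Figures used Python 3.11.15 and matplotlib 3.10.9. Instead of the mean raw intensity that had been planned, normexp (offset 50) was run on median spot and background intensities. Alternatives were other scalings, filters, thresholds, blocks, single slides and arrays left out. Leaving out control 4 with cyfluthrin 8, the test of the difference between slides and some fits without outlier spots were added after seeing the data.

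The members and the rules were chosen with earlier results of these data known. Named were the 3 members with the largest smaller value on the defining arrays among those seen on all 16 arrays and among those seen on at most 8, the 2 highest and 2 lowest in control 4, the 2 brightest, the nearest to the threshold on each side, the 2 most similar tested non-members, and at most 2 called members in each direction. Lists of marker genes could not be counted, as no probe carries a gene name. For arrays, signal over background and the number of arrays limit the precision.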

Additional observations from a re-analysis of the deposited data

Results flagged for a closer look

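An array at the end of a group of 7 or 8 arrays was taken to stand apart where the ratio of the gap beside it to the whole range of the group passed Dixon's critical value at 95%. Of 40 groups of values, 23 held such an array. A rate of about 1 in 20 holds for independent values that were not chosen. Most groups held values of members, which were chosen for their height on the same 2 arrays. The count can therefore not be set against that rate. Control 1 and cyfluthrin 2 were left out of the groups of member values, because the rule chose them. No explanation was tested.

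Control 4 stood apart from the other 6 controls in the member median (2.54 log2 units over the probe median, next 0.042) and in the members' share of the summed signal (5.30%, next 0.228%). It also stood apart in normalised log2 signal for contigs 130 (4.59), 3092 (6.65), 2785 (5.39), 8611 (2.31), 4123 (2.65), 7026 (-0.66), 7910 (5.93), 6236 (3.63), 724 (3.34) and 2256 (-0.43). Cyfluthrin 8 stood apart from the other 6 exposed arrays in the member median (1.02, next 0.11), in the share of the summed signal (2.15%, next 0.57%) and in the signal of contigs 130 (2.77), 2785 (1.91), 8611 (-0.0093), 4123 (1.31) and 6236 (3.996). These transcripts were chosen for their height on the same 2 arrays and share arrays and scaling, so that the values are not independent of each other. Contigs 3092 and 7910 were named for their height in control 4, so that its place in them was fixed by that choice.

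Among measures of whole arrays, in groups of 8, the slope of the spike-in fit was highest among controls in control 6 (0.918, next 0.814) and among exposed arrays in cyfluthrin 1 (1.03, next 0.846). Cyfluthrin 1 also had the most outlier spots among exposed arrays (22, next 16). In cyfluthrin 7, 78.2% of the probes were well above background, the lowest among exposed arrays (next 82.7%).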

How the results depend on the processing

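The group held 146 to 191 probes under 9 alternatives of scaling, floor, reference, outlier spots, background and a threshold of 1.5, and 114 at a threshold of 3. It held 86 with normexp on median intensities and 53 where all 16 arrays had to be well above background. The median in control 4 stayed between 2.19 and 3.02 log2 units under the 12 alternatives run. The highest median among the other 13 arrays, 1.02, became 1.78 at a threshold of 3 and 1.58 with members seen on all 16 arrays. The median share of members not above background, 42.2%, became 15.3% with the flag for positive and significant signal.

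The count of members changed in 14 arrays, 1, was 0 with normexp, 0 with probes seen on all arrays, 0 on slide 1, 2 on slide 2 and 5 without control 4 and cyfluthrin 8. It ranged from 0 to 3 without 1 array. All probes changed numbered 589 of 7152, against 478 with normexp, 25 on slide 1, 75 on slide 2 and 402 without control 4 and cyfluthrin 8. They numbered 249 to 804 without 1 array, and 622 of 5944 with probes seen on all arrays. The split of the 589 into 184 rises and 405 falls became 270 and 273 with median scaling, 287 and 421 with quantile normalization, and 288 and 420 in the authors' log2 values. With the filter of the 16-array fit 2 members passed on slide 2, against 0 with both slides and 0 in each fit without 1 array. The share of all probes in that fit of slide 2 is not given here, so that the 2 are a description only. Between slides 1 member passed with dim probes kept, and 0 in each fit without 1 array. Same-numbered samples correlated at -0.219 to 0.479, above 0.1 in 4 of 8 pairs. Controls 2, 6 and 7 were most like the exposed sample of their own number, and among exposed samples only cyfluthrin 2 was so. These correlations do not settle whether the numbers pair the samples. With the replicate number as a block, 0 members and 89 probes changed.

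The log2 change with exposure of named probes, past the threshold only for contig 471 with all 14 arrays, reversed as follows. On slide 2 it became 1.98 for contig 130, 2.52 for 3092, 2.13 for 2785, 1.09 for 4123, 0.60 for 7910, 0.43 for 3626 and 0.033 for 4619. On slide 1 it became 0.45 for 7785, -0.53 for 6236 and -0.45 for 724. Without control 4 and cyfluthrin 8 it became 0.13 for 3092, 0.41 for 2785, 0.012 for 7785 and 0.19 for 3626. With normexp it became -0.094 for 3644 and -0.045 for 471, with the replicate block 0.082 for 2785, and with quantile normalization and the authors' values 0.018 for 3626. Without 1 array it ranged from -1.21 to 0.885 for contig 130, -1.21 to 1.18 for 3092, -0.82 to 1.09 for 2785, -1.71 to 0.57 for 4123, -1.40 to 0.16 for 7910, -0.30 to 0.041 for 7785, -0.19 to 0.30 for 3626 and -0.46 to 2.8e-05 for 4619. The cause was not tested. Dim members limit all of this: 60 of 154 could not be tested.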

Other observations

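Control 1 had 288 probes at 2 or higher and well above background, of which the members formed 53.5%, and cyfluthrin 2 had 242, of which they formed 63.6%. Cyfluthrin 1 had 218 probes at 2 or higher, more than control 4 with 149 or cyfluthrin 8 with 153, and 1.38% of them were members. Of the 120 pairs of arrays, control 1 with cyfluthrin 2 shared the most probes at 2 or higher and well above background, and the pair of control 1 and control 4 was next with 122. In the median pair 3 probes were shared.

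The 8 members at 2 or higher in cyfluthrin 3 had a median of 2.86 log2 units there, 5.93 in control 1 and 5.30 in cyfluthrin 2, against -0.05 in control 4 and -0.03 in cyfluthrin 8. Probe names end in 1 of 3 numbers. The group took 37.0% of its probes from the ending 380, 29.9% from 771 and 33.1% from 775, where all probes gave 41.1%, 28.8% and 30.1%.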
